A study of Mus musculus with 4 samples.

Results

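The genes that hold back the kinase complex mTORC1 were examined in mouse astrocyte-enriched cultures (AECs) kept with or without oxygen and glucose. These brakes were taken by name as 10 genes, *Ddit4*, *Ddit4l*, *Sesn1*, *Sesn2*, *Sesn3*, *Tsc1*, *Tsc2*, *Deptor*, *Eif4ebp1* and *Prkaa2*, of the 29676 gene names on the array. Every non-control probe that carried one of these names was used. That gave 11 probes, since *Deptor* had 2 and each of the other 9 genes had 1, and all 11 were well above background on all 4 arrays.

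The untreated group held 2 AECs with no treatment, and the OGD group held 2 AECs kept for 15 h under oxygen–glucose deprivation (OGD), that is, hypoxia in medium without glucose. Both groups came from the cerebral cortex of newborn ICR mice, an outbred stock, and carried no engineered allele. PLX3397, which blocks the CSF1 receptor, had been used to deplete microglia from mixed glia of pooled pups, and oligodendrocyte-lineage cells could still be present. Total RNA of each sample was labeled with Cy3 and hybridized to 1 array. Per the methods of the study, wells were seeded from separate cultures of different pups, so p-values measure the spread between 2 such cultures per group.

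mTORC1 is switched on at the lysosome by the small GTPase Rheb and by the Rag GTPases, and then drives protein synthesis and growth. TSC1 and TSC2 form the complex that turns Rheb off, and TSC2 takes in signals from AMPK, which senses low energy, and from REDD1 (*Ddit4*), which is made under hypoxia. Sestrins hold back the Rag arm when leucine is scarce, DEPTOR binds mTOR itself, and 4E-BP1 (*Eif4ebp1*) keeps the cap-binding protein eIF4E from starting translation until mTORC1 phosphorylates it. The arrays measured mRNA and not the proteins or their phosphorylation.

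The scale of the arrays bears on each direction below. The 75th percentile of the processed signal reached 2135 and 2164 in the untreated group but 887 and 776 in the OGD group, which is a log2 difference of -1.37. Values were scaled to this percentile of each array, as in the methods of the study, and the median change over all 28258 tested probes was then 0.18 on the log2 scale. With the 9 spiked-in control probes as the scale, that median was -1.11, and 91.8% of the probes were lower under OGD, compared with 42.5% on the percentile scale. Before scaling, OGD minus untreated ranged from -0.75 to 0.28 between these control probes (log2, mean -0.085). The SE and p-values on the spike-in scale do not include this spread, which is as large as several changes given below. With another background correction (normexp) before percentile scaling, the median was 0.55. Per the methods of the study, a fixed amount of total RNA was labeled from each sample. The spike-in scale thus does not measure cell number or RNA per cell, and the cause of the lower signals was not tested. For a single gene in bulk RNA, fewer cells of a type and less of its mRNA per cell cannot be told apart.

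After 15 h of OGD, the brakes did not move as a group. On the percentile scale, limma called 5 of the 11 probes higher and 4 lower at an adjusted p under 0.05. Among all tested probes, 65% were called (37.9% higher and 27.1% lower), so most probes on these arrays passed that limit. With a change of over 2-fold as a second limit, 3 members rose (*Eif4ebp1*, *Sesn2* and *Sesn3*) and 3 fell (*Sesn1*, *Ddit4l* and *Tsc1*), beside 28.7% of all probes, 13.9% higher and 14.8% lower. Past 10-fold, the limit of the study's methods, *Sesn1* and *Ddit4l* remained and both were lower, beside 0.524% of all probes lower and 0.81% higher. The untreated and OGD values did not overlap in 9 of the 11 probes on the percentile scale, and the same held for 84.7% of all probes. The median change over the 11 probes was -0.015 on the log2 scale. With the spiked-in controls as the scale, the count was 1 higher and 8 lower at the adjusted p limit, and 0 higher and 6 lower with the 2-fold limit. Of all probes, 4.47% were called higher and 81.9% lower on that scale, and 2.32% and 54.9% with the 2-fold limit, so the members' shares lay near those of the array.

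**Figure D1:**
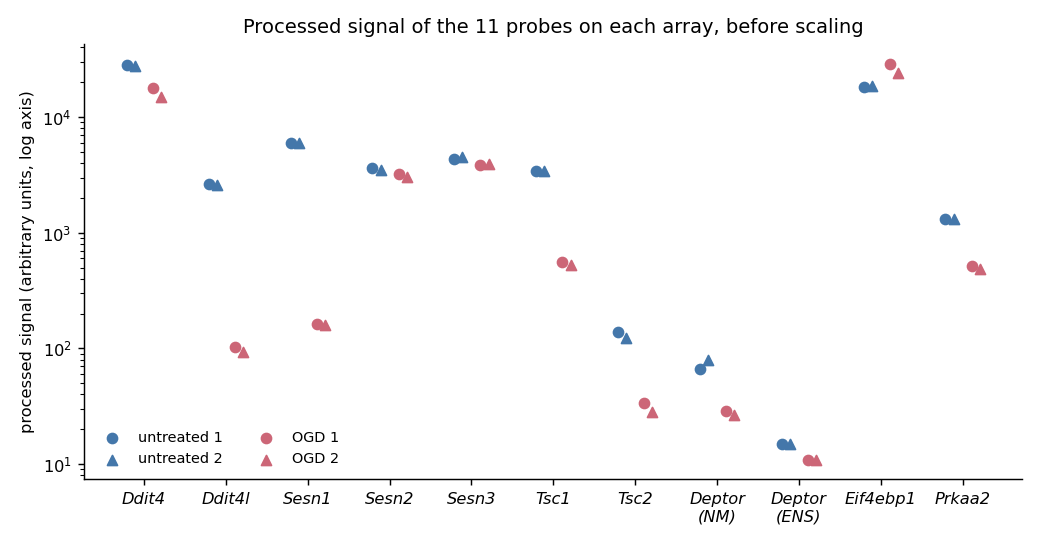
Processed signal (arbitrary units, log axis) of each of the 11 probes on the 2 untreated (blue) and 2 OGD (red) arrays, before any scaling between arrays. Circles are replicate 1 and triangles replicate 2, and the 2 *Deptor* probes are marked by the source of their transcript. *Eif4ebp1* was brighter on both OGD arrays, while the other 10 probes were dimmer there, from a small gap in *Sesn2* and *Sesn3* to 37.5-fold in *Sesn1*.

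*Ddit4* and *Ddit4l* encode REDD1 and its relative REDD2, which act through TSC1 and TSC2. *Ddit4* is a known target of HIF-1 and of stress signaling through ATF4. Their promoters are shown because the pair moved apart. Each holds 250 bases before and 50 after the annotated start (RefSeq, GRCm38.p6), and capitals mark ACGTG, one form of the core of the HIF-1 response element, searched on both strands. The other form, GCGTG, was not counted over all promoters, but it stands in both windows below. The windows thus do not differ in holding a core of either form. *Ddit4* lies at chr10:59951721-59952020 on the minus strand and *Ddit4l* at chr3:137623422-137623721 on the plus strand.
Ddit4 promoter: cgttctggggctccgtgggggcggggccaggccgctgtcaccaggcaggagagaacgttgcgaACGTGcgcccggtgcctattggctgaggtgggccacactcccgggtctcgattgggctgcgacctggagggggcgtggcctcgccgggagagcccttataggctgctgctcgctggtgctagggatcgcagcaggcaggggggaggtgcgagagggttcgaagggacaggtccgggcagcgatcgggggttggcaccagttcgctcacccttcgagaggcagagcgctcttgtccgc
Ddit4l promoter: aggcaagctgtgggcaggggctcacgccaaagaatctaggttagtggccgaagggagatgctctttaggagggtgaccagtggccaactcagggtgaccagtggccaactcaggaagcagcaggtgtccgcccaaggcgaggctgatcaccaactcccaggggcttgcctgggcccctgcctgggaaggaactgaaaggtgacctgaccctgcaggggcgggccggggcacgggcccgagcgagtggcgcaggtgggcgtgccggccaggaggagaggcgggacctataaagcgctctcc
The ACGTG of *Ddit4* began at -187 from the start. ACGTG was not found in the window of *Ddit4l*, and 19.6% of 32851 promoters of this length held one.

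*Ddit4* was bright on all 4 arrays (chr10:59412486-59412545 of mm9, minus strand, NM_029083). It gave 28390 and 27736 in untreated AECs and 17837 and 14867 under OGD. The signal itself was thus lower on both OGD arrays. Relative to the 75th percentile, which fell further, *Ddit4* was higher under OGD, at 4.29 ± 0.050 compared with 3.71 ± 0.038 on the log2 scale (SD, n = 2). This was a rise of 0.59 (SE 0.081, 1.50-fold, adjusted p = 0.00598), and 69.5% of all probes changed less or fell. On the spike-in scale *Ddit4* fell by 0.70 (adjusted p = 0.00252), and with quantile normalization its change was -0.012, so its direction rested on the scale. Without untreated replicate 1 the rise was 0.61 (adjusted p = 0.053), and without untreated replicate 2 it was 0.56 (adjusted p = 0.064).

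*Ddit4l* fell under each of the 16 alternatives (chr3:137290927-137290986 of mm9, plus strand, NM_030143). Its signal was 2642 and 2602 in untreated AECs and 103 and 92.7 under OGD, with no overlap. The scaled level fell from 0.29 ± 0.030 to -3.09 ± 0.030 (log2, SD, n = 2), by 3.37 (SE 0.077, adjusted p = 0.000729), or 10.4-fold. It ranked 137 from the lowest among the 28258 probes. The fall was 25.3-fold on the spike-in scale, and after normexp the change was -2.80 on the log2 scale, which is less than 10-fold. The change of *Ddit4* exceeded that of *Ddit4l* by 3.96 on the log2 scale (SE 0.057, 15.6-fold), and this difference is the same on every scale that shifts an array as a whole. An exact two-sided permutation test gave p = 0.333, which is the smallest p that 2 arrays against 2 allow.

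The sestrins are stress-induced proteins, of which SESN1 and SESN2 are known to bind leucine. *Sesn1* is known as a p53 and FOXO target, *Sesn2* as a target of ATF4 and p53, and *Sesn3* as a FOXO target. Promoters of *Sesn1* and *Sesn2*, which moved in opposite directions on the percentile scale, are shown for that contrast. Capitals mark a match to the FOXO-type motif GTAAACA on either strand. The *Sesn1* start shown lies at chr10:41810324-41810623 on the plus strand, and a further *Sesn1* start at chr10:41887189-41887488. *Sesn2* lies at chr4:132510407-132510706 on the minus strand (all GRCm38.p6).
Sesn1 promoter: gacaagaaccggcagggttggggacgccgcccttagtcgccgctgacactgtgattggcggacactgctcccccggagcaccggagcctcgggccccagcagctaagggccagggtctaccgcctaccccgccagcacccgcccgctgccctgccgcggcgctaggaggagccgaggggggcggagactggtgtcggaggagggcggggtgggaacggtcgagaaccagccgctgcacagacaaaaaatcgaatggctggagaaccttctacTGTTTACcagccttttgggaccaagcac
Sesn2 promoter: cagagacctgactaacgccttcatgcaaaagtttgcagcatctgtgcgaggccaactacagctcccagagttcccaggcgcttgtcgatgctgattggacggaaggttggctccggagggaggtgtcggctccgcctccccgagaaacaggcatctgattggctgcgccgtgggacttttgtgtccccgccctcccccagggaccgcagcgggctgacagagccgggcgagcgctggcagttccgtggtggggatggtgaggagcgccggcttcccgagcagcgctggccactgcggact
The *Sesn1* match was on the minus strand and its leftmost base stood at 23, with the annotated start as 1, and 3.65% of all promoters held this motif. The further *Sesn1* start and the windows of *Sesn2* and *Sesn3* held no match. The ATF4-type motif TGATGNAA was found in 0 of the 9 member windows (3.97% of all promoters), and so was CACGTG (7.15%). The windows covered 8 of the 10 genes, with 2 entries for *Sesn1*. GC content was 66.7% in the *Sesn1* window and 64.7% in that of *Sesn2*, both above the median of 52.7% over all promoters, and they held 24 and 23 CpG, compared with a median of 7.

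*Sesn1* showed the largest fall among the brakes. Its probe (chr10:41628012-41628071 of mm9, plus strand, NM_001162908) is shown by its last 30 bases, since the letters of the polyadenylation signal, AATAAA (in capitals), stand in them, as they do near the end of many mRNAs.
Sesn1 probe, bases 31 to 60: taaagAATAAAgctggaaaatattttagtg
The processed signal was 6012 and 5981 in untreated AECs and 161 and 158 under OGD, so the OGD arrays lay far below both untreated ones. The scaled level went from 1.48 ± 0.019 to -2.38 ± 0.12 (log2, SD, n = 2). It fell by 3.86 (SE 0.095, adjusted p = 0.000729), or 14.5-fold, and ranked 65 from the lowest of all probes. The fall was 35.4-fold on the spike-in scale, and the change after normexp was -3.45 on the log2 scale. *Armc2*, on the opposite strand 6785 bp away, also fell, by 2.56 on the log2 scale (adjusted p = 0.000729) at a probe that went from 2899 and 2869 to 195 and 181. Its other probe was dim, at 18.4 and 17.6 in untreated AECs, and did not pass the test (0.36, adjusted p = 0.238).

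*Sesn2* and *Sesn3* moved the other way on the percentile scale. The *Sesn2* signal (chr4:132048858-132048917 of mm9, minus strand) was 3637 and 3512 in untreated AECs and 3242 and 3003 under OGD. This was a small drop in signal, which became a rise from 0.73 ± 0.049 to 1.91 ± 0.057 once scaled (log2, SD, n = 2). The rise was 1.18 (SE 0.083, 2.26-fold, adjusted p = 0.00154). The *Sesn3* signal (chr9:14130452-14130511 of mm9, plus strand) was 4360 and 4542 untreated and 3854 and 3892 under OGD. Scaled, it rose from 1.05 ± 0.028 to 2.22 ± 0.15, by 1.17 (SE 0.11, 2.25-fold, adjusted p = 0.00234). In both genes, the scaled OGD values lay above both untreated ones. On the spike-in scale the changes were -0.11 for *Sesn2* (adjusted p = 0.345) and -0.12 for *Sesn3* (adjusted p = 0.398), and neither passed the test.

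The gap within the family did not depend on the scale of an array. The change of *Sesn2* exceeded that of *Sesn1* by 5.03 on the log2 scale (SE 0.047, 32.7-fold), and that of *Sesn3* did so by 5.03 (SE 0.039, 32.6-fold), each with an exact permutation p of 0.333, the smallest possible. *Sesn2* and *Sesn3* differed in their change by 0.0048 on the log2 scale (SE 0.083), which was less than the spread between arrays (exact permutation p = 1).

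*Tsc1* encodes hamartin and *Tsc2* encodes tuberin, the GTPase-activating subunit for Rheb. *Tsc1* (chr2:28546610-28546669 of mm9, plus strand) had a signal of 3386 and 3390 in untreated AECs and 563 and 527 under OGD, with no overlap. It fell by 1.26 on the log2 scale (SE 0.082, 2.40-fold, adjusted p = 0.00135), and by 2.55 on the spike-in scale. *Spaca9*, whose 2 probes lie within 1831 bp of it on the opposite strand, did not pass the test (0.15 and 0.0086 on the log2 scale).

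*Tsc2* (chr17:24732882-24732941 of mm9, minus strand) was dim, with a signal of 137 and 123 untreated and 33.7 and 28.4 under OGD. The change was -0.70 on the log2 scale (SE 0.10, 1.62-fold lower, adjusted p = 0.00690), but after normexp it was 0.26 (adjusted p = 0.042) and thus turned its direction. Without untreated replicate 1 it was -0.60 (adjusted p = 0.053). *Pkd1*, read by a probe 279 bp away on the opposite strand, fell by 0.88 on the log2 scale (adjusted p = 0.00206). The changes of *Tsc2* and *Tsc1* differed by 0.57 on the log2 scale (SE 0.11, exact permutation p = 0.333). After normexp the gap was wider, with *Tsc1* at -1.22 beside the 0.26 of *Tsc2*.

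*Deptor* binds mTOR directly and gave low signals throughout. Its probe to NM_145470 (chr15:55083753-55083812 of mm9, plus strand) gave 66.4 and 79.3 in untreated AECs and 28.7 and 26.4 under OGD. Scaled, the groups overlapped, and the change was -0.026 on the log2 scale (SE 0.12, adjusted p = 0.857). The probe to an Ensembl transcript, 32014 bp upstream (chr15:55051739-55051798), gave 14.9 and 15.0 untreated and 10.9 and 10.9 under OGD. Its change was 0.92 (SE 0.10, adjusted p = 0.00356) at signals that were dim, though marked as well above background on all 4 arrays. The probes thus did not give 1 value for the gene, and differed in their change by 0.95 on the log2 scale (SE 0.14, exact permutation p = 0.333). On the spike-in scale both fell, by 1.31 and 0.37, and after normexp both were higher, at 0.64 and 1.19.

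*Eif4ebp1*, the translation brake at the end of the pathway and a known ATF4 target, was the member with the largest rise. Its signal (chr8:28385887-28385946 of mm9, plus strand) was 18166 and 18467 in untreated AECs and 28846 and 24144 under OGD, so both OGD arrays were brighter even before scaling, by 1.44-fold. The scaled level rose from 3.09 ± 0.0030 to 4.99 ± 0.046 (log2, SD, n = 2). The rise was 1.90 (SE 0.078, 3.73-fold, adjusted p = 0.000775), which ranked 997 from the highest of all probes. *Eif4ebp1* was the only member that rose on the percentile scale and on the spike-in scale, where the rise was 0.61 (adjusted p = 0.00447). Its change exceeded that of *Ddit4* by 1.31 on the log2 scale (SE 0.029) and that of *Sesn2* by 0.72 (SE 0.082), each with an exact permutation p of 0.333.

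*Prkaa2* encodes the alpha-2 catalytic subunit of AMPK. Its signal (chr4:104707708-104707767 of mm9, minus strand) was 1305 and 1305 in untreated AECs and 512 and 486 under OGD. It fell as far as the array's 75th percentile did, so the scaled groups overlapped and the change was -0.015 on the log2 scale (SE 0.085, adjusted p = 0.886). Scaled to the spiked-in controls, it fell by 1.30 (adjusted p = 0.000275). The other catalytic subunit, *Prkaa1*, stood at 0.012 (adjusted p = 0.920) and -1.28 on the same 2 scales.

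**Figure D2:**
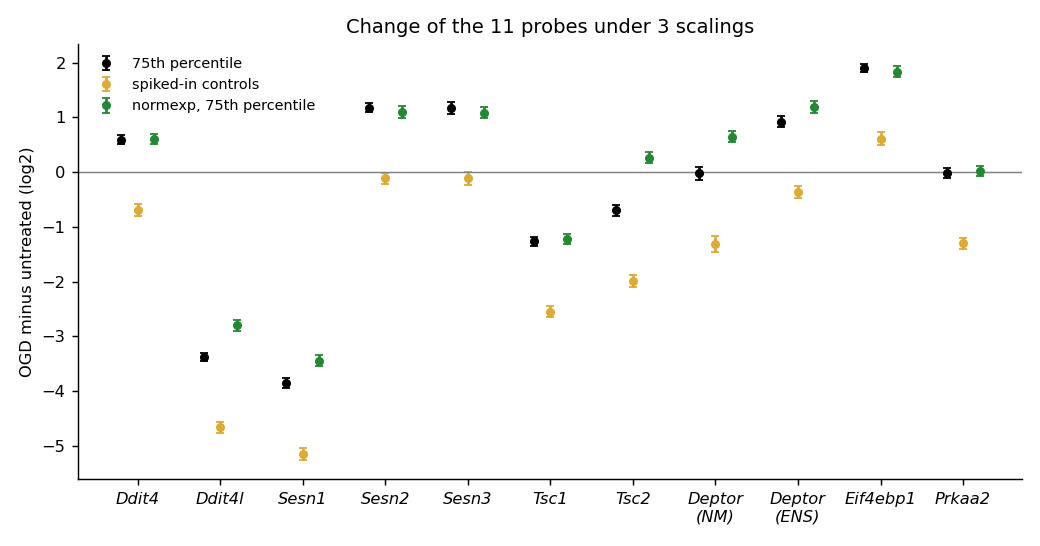
Change of each of the 11 probes (log2, OGD minus untreated, mean of 2 arrays each) under percentile scaling (black), spike-in scaling (yellow) and normexp with percentile scaling (green). Bars are the standard error from limma. *Sesn1*, *Ddit4l* and *Tsc1* lay below 0 and *Eif4ebp1* above 0 under all 3, while *Ddit4*, *Sesn2*, *Sesn3* and the upstream *Deptor* probe lay below 0 under spike-in scaling and *Tsc2* lay above 0 after normexp.

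**Figure D3:**
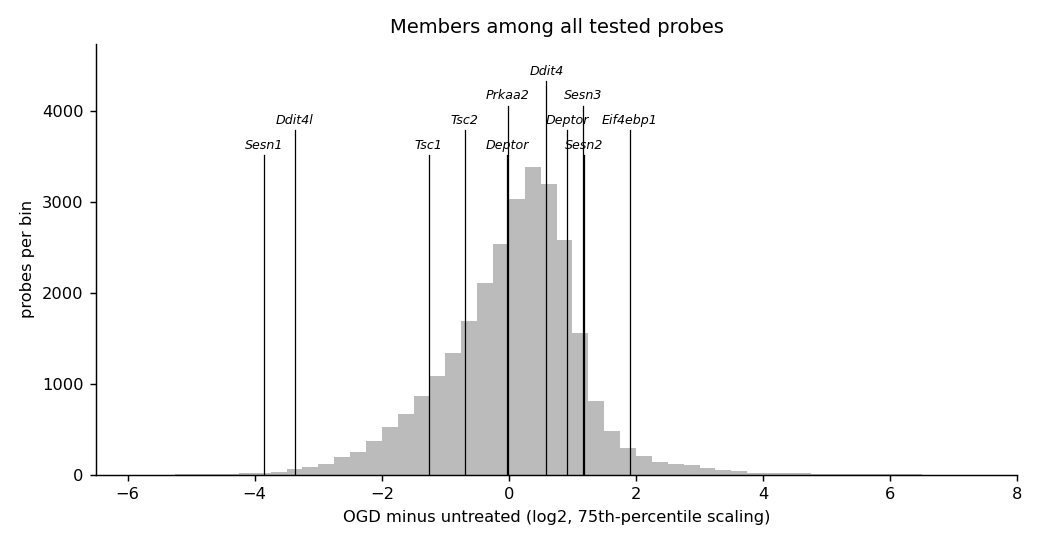
Number of probes per bin of log2 change (OGD minus untreated, percentile scale) over all 28258 tested probes, with a line at each of the 11 member probes. *Sesn1* (-3.86) and *Ddit4l* (-3.37) lay in the far lower tail, *Eif4ebp1* (1.90) in the upper tail, and the other 8 probes within the main body.

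The probes most like *Eif4ebp1* and *Sesn1* were sought among 24588 probes well above background on all arrays, by the root mean square difference of centered log2 values over the 4 arrays. For *Eif4ebp1* these were probes of *Coa5* (0.0146), *Lta* (0.0150) and *Zrsr2* (0.0165). For *Sesn1* they were *Fam181a* (0.0422), *A930026B05Rik* (0.0470) and *9930012K11Rik* (0.0493). With 4 arrays in 2 groups, such a likeness rests mostly on the size of the change.

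The other genes of the pathway, 77 in 5 lists and each read by its brightest probe, were likewise split. At the adjusted p limit 30 were higher and 28 lower, compared with 37.1% and 27.8% of 21064 genes. Past 2-fold, 8 rose and 16 fell, beside 12.7% and 15% of all genes. With the percentile taken over probes well above background only, 4 rose and 17 fell past 2-fold. Their median change was 0.059, compared with 0.16 over all genes. On the spike-in scale, 3 of the 77 were higher and 68 lower, beside 3.84% and 83.3% of all genes, and 2 were higher and 44 lower past 2-fold, beside 2.01% and 55.7%.

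Of 11 genes of the mTOR complexes and Rheb, on which the brakes act, 2 were higher and 7 lower, with a median of -1.02. One of those counted higher was *Mtor*, at 2.71 by its brightest probe over the 4 arrays, but its other probe fell by 1.56. *Mlst8* and *Rptor*, which encode subunits of mTORC1, fell by 1.59 and 1.33 on the log2 scale, *Prr5*, a subunit of mTORC2, by 1.34, and the Rheb relative *Rhebl1* by 2.05. *Rheb* itself rose by 1.05 (adjusted p = 0.00517), but stood at -0.24 on the spike-in scale (adjusted p = 0.129). In the Rag, Ragulator and GATOR list, through which the sestrins act, 13 of 23 genes were higher and 7 lower. Past 2-fold, 3 were higher, *Seh1l* (1.26), *Rragc* (1.05) and *Flcn* (1.03), and 5 lower. At these brightest probes none of the 3 rose on the spike-in scale, where they stood at -0.028, -0.24 and -0.25. The other *Seh1l* probe rose by 2.91 (adjusted p of limma 0.000801), and by 1.62 on the spike-in scale (adjusted p = 0.000393). The other probes of *Rragc* and *Flcn* stood at -0.14 and 0.053 on that scale and did not pass the test. The 4 with the largest changes fell, namely *Depdc5*, *Slc38a9*, *Castor2* and *Castor1*, by 2.51, 2.15, 1.86 and 1.44. *Depdc5* encodes a subunit of the GATOR1 brake, *Slc38a9* a lysosomal amino acid sensor and *Castor1* an arginine sensor. After normexp, *Castor1* stood at -0.56 and was no longer past 2-fold, and the changes of *Depdc5* and *Rhebl1* were smaller, at -1.70 and -1.41. The other 3 probes of *Depdc5* were dim and did not pass the test. Of 11 AMPK genes, 3 were higher and 2 lower, and only *Camkk2*, an upstream kinase, passed 2-fold, with a fall of 1.89.

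Upstream, 3 of 13 genes from the insulin receptor to Akt were higher and 7 lower, with falls of 2.16 in *Irs1* and 1.66 in *Pik3r2*. The other probe of *Irs1* was higher, by 0.42 (adjusted p = 0.0151). Downstream, 9 of 19 mTORC1 substrates and translation factors were higher and 5 lower. *Eif4ebp2*, the relative of *Eif4ebp1*, fell by 1.38 (adjusted p = 0.00114) and stood at -2.67 on the spike-in scale, in the opposite direction to *Eif4ebp1* on both scales. The remaining 4E-BP gene, *Eif4ebp3*, stood at -0.27 (adjusted p = 0.0453) and at -1.56 on the spike-in scale. The initiation factor *Eif4b* rose by 2.25 and *Grb10*, an mTORC1 substrate that damps insulin signaling, by 2.36, and both also rose on the spike-in scale, by 0.96 and 1.07. *Grb10* was dim, with a signal of 57.3 and 60.1 untreated and 134 and 101 under OGD. The elongation factor *Eef2* rose by 1.13 on the percentile scale, and stood at -0.16 on the spike-in scale (adjusted p = 0.201). On that scale 3.84% of all genes were higher and 83.3% lower, and each of the 5 lists likewise had more genes lower than higher. The counts were 1 higher and 9 lower for the mTOR complexes and Rheb, and 0 and 19 for Rag, Ragulator and GATOR. They were 0 and 11 for AMPK, 0 and 13 from the insulin receptor to Akt, and 2 and 16 for the substrates and translation factors.

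Targets of the stress factors named above were counted beside 37.1% of all genes higher and 27.8% lower. The lists were chosen with earlier results of these data known, so their counts and medians are descriptions only. *Adm*, *Vegfa*, *Hk2*, *Chac1*, *Trib3* and *Atf3* are in the study's own table of raised genes from these arrays. All 12 HIF-1 targets were higher (10 past 2-fold, median 1.98), led by *Ankrd37* (5.92), *Adm* (4.54), *Vegfa* (3.56) and *Hk2* (3.53). Of 10 ATF4 targets, 9 were higher and 1 lower (median 2.10), led by *Chac1* (4.51), *Trib3* (4.36), *Atf3* (3.75) and *Vldlr* (2.89). *Ddit4* (0.59) and *Sesn2* (1.18) thus lay below the medians of these lists, and *Eif4ebp1* (1.90) close to them. *Atf4* rose by 2.00, also on the spike-in scale, by 0.72 (adjusted p = 0.00207). *Hif1a* rose by 1.21 on the percentile scale and stood at -0.077 on the spike-in scale (adjusted p = 0.510). Of 10 p53 targets, 4 were higher and 2 lower (median 0.17), with *Plk2* at 2.40 and *Trp53inp1* at -2.44. Scaled to the spiked-in controls, 7 HIF-1 targets were higher and 2 lower (median 0.69), and 5 ATF4 targets were higher and 4 lower (median 0.81). On that scale 1 p53 target was higher and 9 lower (median -1.11). Of all genes, 3.84% were higher and 83.3% lower there, so the p53 count lay near the shares of the array. After normexp *Ankrd37* stood at 4.91.

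**Figure D4:**
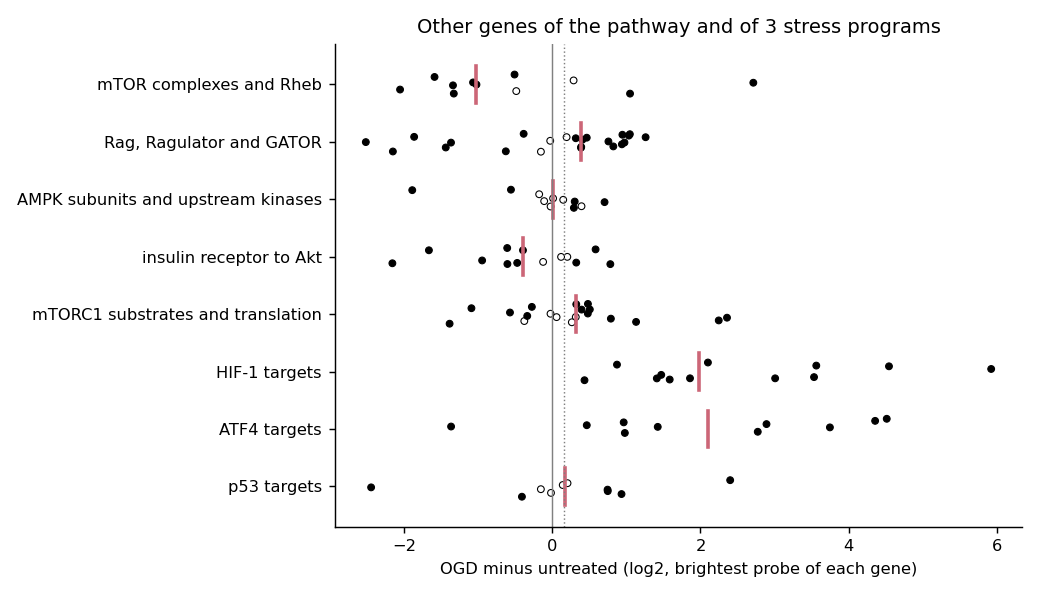
Log2 change (OGD minus untreated, percentile scale) of the brightest probe of each gene in 5 lists of the mTOR pathway, without the 10 brakes, and in 3 lists of stress targets. Filled points passed the adjusted p limit of limma, red bars are list medians, the solid line is 0 and the dotted line the median of all genes (0.16). The mTOR complexes (median -1.02) lay lowest, and the HIF-1 (1.98) and ATF4 targets (2.10) highest.

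The value of a gene could depend on which probe was read, which matters for 9 brakes that had 1 probe only. Of the pathway genes compared by probe, 30 had several tested probes, and 5 of these had a probe called higher and another called lower, namely *Eif4e2*, *Insr*, *Irs1*, *Mtor* and *Rps6kb1*. Over the array, 12.3% of 5604 genes with several tested probes were split in this way. *Mtor*, the kinase itself, was split the most. Its probe at chr4:147829016-147829075 of mm9, to an Ensembl transcript, went from 598 and 618 to 1622 and 1460, a rise of 2.71 (6.56-fold). Its probe at chr4:147931250-147931309, to NM_020009 and 102234 bp further downstream, went from 989 and 987 to 130 and 130, a fall of 1.56 (2.94-fold). The probes of *Mtor* differed in their change by 4.27 on the log2 scale (SE 0.079), and on the spike-in scale they still moved apart, at 1.42 and -2.85. In 5 of the 5 split genes, and in *Deptor*, the most upstream probe had the higher change on the percentile scale, as in 88.6% of 682 split genes of the array. In *Eif4e2* this order turned after normexp (0.27 upstream and 0.60 downstream), and its downstream probe was well above background on the 2 untreated arrays only. The count of split genes was 6 after normexp, 4 of them among these 5, and 4 on the spike-in scale, 2 of them among these 5. These genes were chosen after their values were seen, and the cause was not tested.

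**Figure D5:**
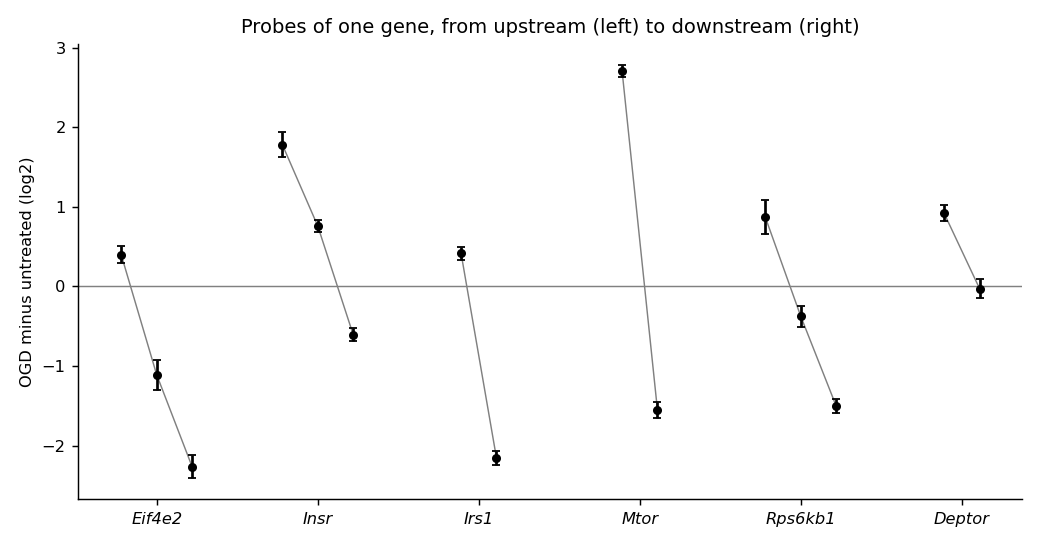
Log2 change (OGD minus untreated, percentile scale) of each tested probe of 5 pathway genes with probes called in opposite directions, and of *Deptor*, ordered within a gene from upstream (left) to downstream (right). Bars are the standard error from limma. The change was highest at the most upstream probe in each gene, and the gap was 4.27 in *Mtor* and 0.95 in *Deptor*.

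The label of the cultures was set against marker genes. All 10 astrocyte markers were measured, and the processed signal of *Gfap* was 47436 and 46408 untreated and 31713 and 28266 under OGD. Scaled, 6 of the 10 were higher and 1 lower, with a median of 0.67. The summed signal of 11 oligodendrocyte-lineage markers fell from 62804 and 64151 to 23621 and 20019, with 4 higher and 4 lower once scaled and a median of 0.14. Of these, *Olig2* fell by 2.50 on the log2 scale and *Mbp* rose by 1.19. The summed signal of 9 microglia markers was low, at 5019 and 4474 untreated and 5992 and 5077 under OGD, with 3 higher and 2 lower. Of these, *P2ry12* was near background (19.5 and 21.5 untreated) and *Cd68* rose by 3.14. Of 7 neuronal markers tested, 3 were higher and 2 lower, with summed signals of 66822 and 63393 untreated and 28086 and 27016 under OGD. These counts stand beside 37.1% of all genes higher and 27.8% lower. With the spiked-in controls as the scale, the markers higher and lower were 0 and 8 for astrocytes, 0 and 10 for the oligodendrocyte lineage, 1 and 6 for microglia and 0 and 6 for neurons, beside 3.84% and 83.3% of all genes. The part of these cell types in the changes of the brakes was not tested.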

How the data were processed

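Per the labels, the authors extracted total RNA, labeled it with Cy3 and processed the scans with Agilent Feature Extraction (11.5.1.1 in the submitters' processing notes). The deposited unit is an intensity per spot, the processed signal after the software's background subtraction, with marks for spots well above background or outlying, which are other values of 0 or 1. It was not scaled between arrays. Here, log2 of that intensity was taken, outlier spots (119 to 132 per array) were dropped, spots of a probe were averaged and each array's 75th percentile over non-control probes was subtracted. A probe was kept if both arrays of either group marked it as well above background. The 28258 kept were compared with limma 3.58.1 (R 4.3.3), and p-values were adjusted over all of them by Benjamini–Hochberg. Single differences between members used exact permutation tests over arrays. Python 3.11.15, pandas 2.3.3 and matplotlib 3.10.9 made tables and figures. A gene of a list was read by its brightest probe.

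The members, gene lists and motifs were chosen with earlier results of these data known. Named were all members, at most 4 genes of each list (the largest changes past adjusted p 0.05 and 2-fold, well above background on all arrays), *Mtor*, *Rptor*, *Rheb*, *Prkaa1*, *Eif4ebp2*, *Rps6kb1*, *Atf4* and *Hif1a*, and the 3 closest profiles of the members with the largest rise and fall. *Rps6kb1* stood at -0.38 (adjusted p = 0.0755) at its brightest probe. *Seh1l*, *Rragc*, *Flcn*, *Eif4ebp3* and the neighbouring, marker and split-probe genes were added after their values were seen. *Castor1* and *Castor2* were matched through RefSeq synonyms. The alternatives were other tests, background corrections, scalings, filters, a replicate block and leaving out each array. The steps were tested on simulated data. Positions are mm9, per the file headers, and promoters GRCm38.p6. No member probe shared a run of 25 bases with another probe. The probes of 1 pathway gene are not reported here. Arrays have no read depth, and their number limits the precision. Markers of fibroblasts (1 of 5 tested lower) and endothelium (1 of 3 tested lower) were also counted. The study's PCR, staining and cell death assays were not analysed here.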

Additional observations from a re-analysis of the deposited data

How the results depend on the processing

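*Ddit4l*, *Sesn1*, *Tsc1* and *Eif4ebp1* kept their direction and their side of the adjusted p limit of limma under all 16 alternatives. With the spiked-in controls as the scale, the log2 change was -0.70 for *Ddit4*, -0.11 for *Sesn2*, -0.12 for *Sesn3*, -1.31 and -0.37 for the downstream and upstream *Deptor* probes and -1.30 for *Prkaa2*. The member counts were then 1 higher and 8 lower, and 0 higher and 6 lower past 2-fold, near the shares of the array (81.9% and 54.9% lower). Of the pathway genes, 2 were higher and 44 lower past 2-fold, and of the stress targets, 11 and 7. By construction this scale shifts all probes of an array by the same amount. With quantile normalization, *Ddit4* stood at -0.012 and *Prkaa2* at 0.034. After normexp, *Tsc2* stood at 0.26, the downstream *Deptor* probe at 0.64 and *Prkaa2* at 0.019, 1 member was lower past 10-fold, and 1 stress target was lower past 2-fold. The cause was not tested. With the percentile taken over probes well above background, 4 pathway genes were higher past 2-fold. The mean of the *Deptor* probes was 0.45. Leaving out each array in turn gave 0.55 to 0.62 for *Ddit4*, -0.79 to -0.60 for *Tsc2*, -0.14 to 0.093 for the downstream *Deptor* probe and -0.073 to 0.043 for *Prkaa2*. The methods' t-test called 5 members higher and 4 lower after Benjamini–Hochberg adjustment. With the replicate number as a block, the change of *Ddit4* stayed at 0.59 (adjusted p = 0.0189) and no call among the members changed. The deviations of same-numbered arrays correlated at -0.057, so the numbers gave no sign of pairing. The signals of *Tsc2* and *Deptor* were low, at 137 or less on every array.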
